A study of Arabidopsis thaliana with 2 samples.

Results

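TCP9 (AT2G45680) and TCP14 (AT3G47620) are growth regulator genes of Arabidopsis thaliana. Each lay under 1 peak in a list deposited for chromatin immunoprecipitation of the NAC transcription factor ATAF1. The members were chosen from measured values, since the rule kept those of the 439 peaks in the deposited list whose overlap annotation names either locus or its symbol. It found 2 peaks, 1 per gene. Antibodies against the HA tag had pulled down chromatin of 35S:ATAF1-HA plants, which express the tagged factor in a Col-0 background, and of wild-type Col-0 plants without the tag. The 35S promoter is constitutive, so expression of ATAF1-HA does not follow that of the native gene. Rosettes of both genotypes were taken at 5 weeks, after growth at 21 °C under short days of 8 h. Each genotype had 1 library and there were no replicates. The list gives 1 read count per peak without naming the library, so no comparison of ATAF1-HA with Col-0 plants could be made at either gene, and the depth of the libraries is unknown. Reads, false discovery rate (FDR) and p-value of each peak are the authors' own. Intervals and tests below treat reads as independent, cover counting error only and say nothing about variation between plants.

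TCP proteins are a plant-specific family of transcription factors that bind DNA through a basic helix-loop-helix type domain named after TEOSINTE BRANCHED1, CYCLOIDEA and the PCF proteins. Class I members, to which TCP9 and TCP14 belong, are known mostly for promoting cell proliferation and growth with much redundancy, and class II members of the CINCINNATA type for restraining proliferation in leaves. TCP14 promotes germination and, with its close relative TCP15, acts in internode growth and in responses to cytokinin and gibberellin. TCP9 acts with TCP8 at the promoter of the salicylate synthesis gene ICS1.

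On TCP9 the peak was long and held mostly reverse reads. It lay on chromosome 2, 18820949 to 18821323 in TAIR9 coordinates, and was 374 bp long. It held 288 reads (exact Poisson 95% interval 256 to 323), of which 85 were forward and 203 reverse. The deposited FDR was 0.283% and the deposited p-value was 0, as in 373 peaks of the list. The overlap annotation named AT2G45685 beside TCP9, a non-coding RNA gene. Peaks on a protein-coding gene that also named a long non-coding RNA gene numbered 2 of 291, and the list does not tell which of the overlapping genes a peak belongs to. The 5′ neighbour in the list was the protein-coding gene AT2G45670 at 2486 bp. The 3′ neighbour column gave TCP9 itself without a distance, a form found in 103 peaks where a neighbour column repeated an overlapped gene.

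On TCP14 the peak was short and held mostly forward reads. It lay on chromosome 3, 17559034 to 17559046, and was 12 bp long. It held 178 reads (exact Poisson 95% interval 153 to 206), of which 130 were forward and 48 reverse. The deposited FDR was 1.60% and the p-value was again 0. TCP14 was the sole gene in the overlap annotation. Both listed neighbours lay far off, the pseudogene AT3G29805 at 5831773 bp and the ABC transporter gene ABCA2 (AT3G47730) at 35013 bp. In RefSeq gene order the protein-coding genes AT3G47610 and AT3G47630 flank TCP14, and neither was named under a peak. The neighbour columns are incomplete in general, with a listed neighbour over 20000 bp away in 316 peaks. Exons, introns, untranslated regions and strand of the genes are not in the list, so neither peak was placed within its gene.

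**Figure D1:**
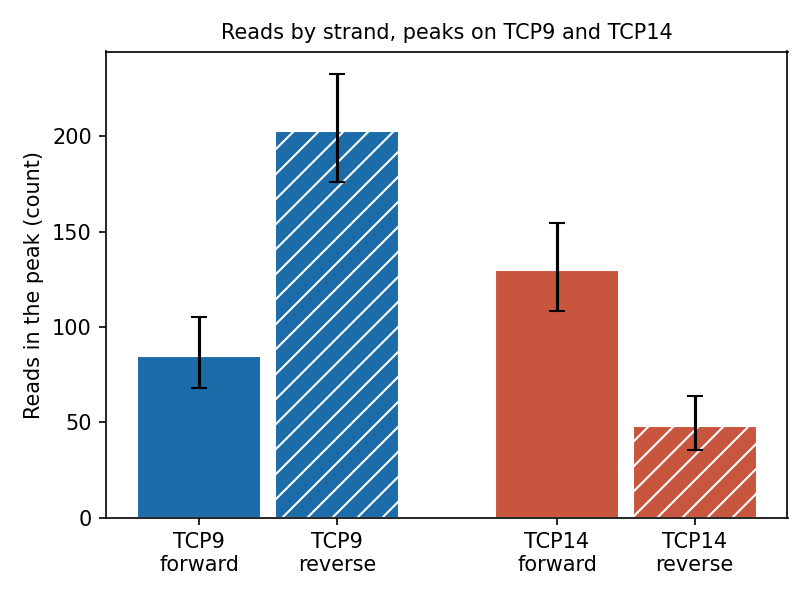
Reads (count) on the forward strand (plain bars) and the reverse strand (hatched bars) in the peaks on TCP9 and TCP14, with exact Poisson 95% intervals as error bars. The order of the strands is opposite at the 2 genes, with 85 forward and 203 reverse reads on TCP9 and 130 forward and 48 reverse reads on TCP14.

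The strand balance of the 2 peaks pointed in opposite directions. Forward reads made up 29.5% of the TCP9 peak (Wilson 95% interval 24.5 to 35.0) and 73.0% of the TCP14 peak (66.1 to 79.0). The difference was -43.5 percentage points, TCP9 minus TCP14 (Newcombe 95% interval -51.3 to -34.6, Fisher's exact test, two-sided, p = 2.46e-20, adjusted p = 9.82e-20 over 4 tests on reads of these peaks). Each share also departed from an equal split in an exact binomial test (two-sided, adjusted over all 439 peaks), with an adjusted p = 7.73e-11 for TCP9 and an adjusted p = 1.16e-08 for TCP14. Such departures were common. Of all 439 peaks, 221 (50.3%) passed the same test at an adjusted p under 0.05. TCP9 was one of 130 peaks with an excess of reverse reads (29.6%) and TCP14 one of 91 with an excess of forward reads (20.7%). Passing the test therefore does not set the 2 genes apart from the list. Other pairs of peaks were not tested, so how common such a difference between peaks is in the list is unknown.

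The size of the imbalance lay near the edge of the list for both genes. Over all peaks the forward share had a median of 48.7%, quartiles of 40.1% and 56.5%, and a range of 25.5% to 74.7%. TCP14 had the rank of 3 from the highest forward share, and TCP9 the rank of 18 from the lowest. The deposited strand imbalance, the absolute difference of the strands over their sum, was 0.410 on TCP9 and 0.461 on TCP14. Over the list it had a median of 0.165 and a maximum of 0.495. Whether more imbalanced peaks were removed before deposit is not given in the sources used and was not tested. The ranks therefore hold only among the deposited peaks. Peaks at least as imbalanced as TCP9, itself included, numbered 33. Of these, 24 lay on protein-coding genes, as did 291 of all 439 peaks, and nothing is read from that count. Peaks at least as imbalanced as TCP14 numbered 10.

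Peaks of like depth gave a closer comparison, since a share from few reads scatters more. Besides TCP9, 55 peaks had a read total within 10% of its 288. Their forward shares ran from 32.5% to 69.9% with a median of 50%, so TCP9 lay below all 55. Around TCP14, 48 other peaks had a total within 10% of its 178. Their forward shares ran from 25.9% to 71.3% with a median of 49.97%, and TCP14 lay above all 48. One of those 48 had a larger imbalance than TCP14, on the reverse side. This comparison was chosen after the values were seen and describes positions within 1 list.

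**Figure D2:**
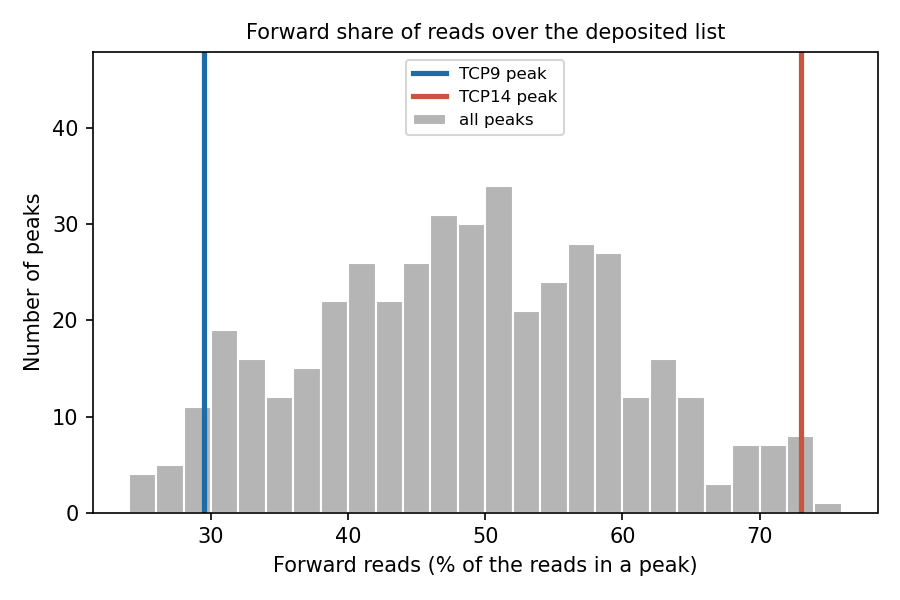
Number of peaks (vertical axis) by forward reads as a percent of the reads in a peak (horizontal axis), with lines at the TCP9 peak and the TCP14 peak and grey bars for all 439 peaks. The TCP9 line at 29.5% stands in the low tail and the TCP14 line at 73.0% in the high tail, around a median of 48.7%.

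By total reads the TCP9 peak was the larger, at 1.62 times the TCP14 peak (exact 95% interval 1.34 to 1.96, exact binomial test, two-sided, p = 3.94e-07, adjusted p = 3.94e-07 over the same 4 tests). That order held on the reverse strand and not on the forward strand. TCP9 had 4.23 times the reverse reads of TCP14 (exact 95% interval 3.07 to 5.92), but 0.654 times its forward reads (0.491 to 0.866). TCP9 ranked 106 of 439 by reads and TCP14 ranked 282, against a list median of 215 reads. Among the 291 peaks on protein-coding genes the ranks were 60 and 181. Neither gene was among the highest peaks of the list. The ratio of reads was not tested for other pairs of peaks either.

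The peaks also differed in length. TCP9 had the rank of 9 from the longest peak of the list, and TCP14 the rank of 30 from the shortest, against a median of 40 bp and quartiles of 27 and 58 bp. Reads per bp of peak length were 0.770 on TCP9 and 14.8 on TCP14, with a median of 5.23 over the 436 peaks that had a length above 0. On that scale the order turned round, and TCP9 stood at 0.0519 times TCP14 (exact 95% interval 0.0429 to 0.0629). Reads may extend past the listed ends of a short peak, so reads per bp are not an occupancy. TCP9 was one of 20 peaks of 150 bp or more. Of these, 11 lay on protein-coding genes, 10, TCP9 among them, had a p-value of 0, and 5 had a p-value above 0.05. TCP14 was one of 30 peaks of 12 bp or less. Of these, 13 lay on protein-coding genes, 13, TCP14 among them, had a p-value of 0, and 11 had a p-value above 0.05. Over all 439 peaks, 291 lay on protein-coding genes, 373 had a p-value of 0 and 24 had a p-value above 0.05.

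**Figure D3:**
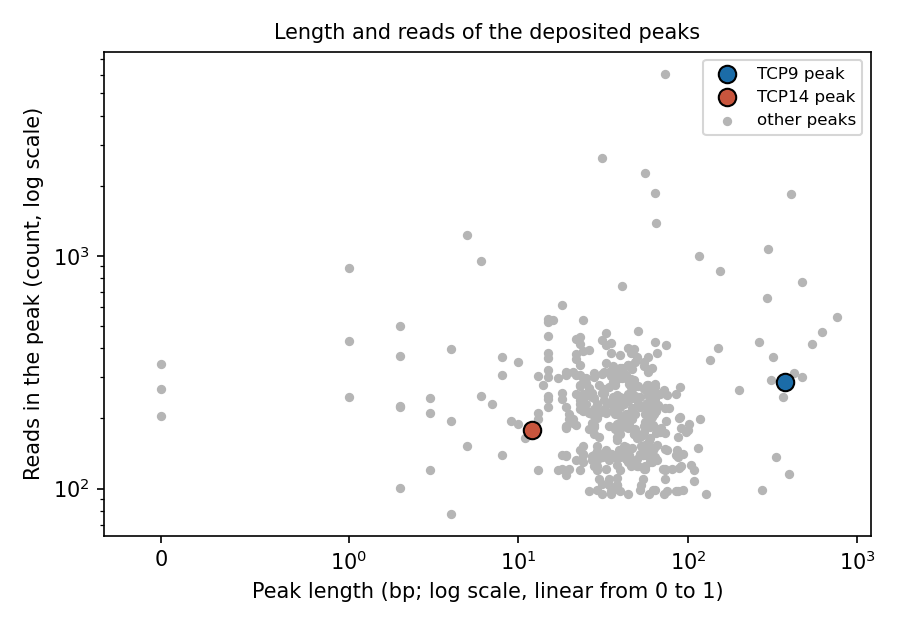
Reads in the peak (count, log scale) against peak length (bp, log scale, linear from 0 to 1), with the TCP9 peak, the TCP14 peak and the other peaks of the list as points. TCP9 (374 bp, 288 reads) lies right of the main cloud around 40 bp and TCP14 (12 bp, 178 reads) at its left edge.

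Along the chromosomes neither peak was part of a close group. The nearest peak to TCP9 lay 117 kb to its right, named no gene and held 189 reads, 49 of them forward, with a p-value of 1. To its left the next peak was 425 kb away, on the glycosyl hydrolase gene GH9B12 (AT2G44570), with 187 reads. The nearest peak to TCP14 lay 62.3 kb to its right on the ABC transporter gene ABCA6 (AT3G47770), with 441 reads and an FDR of 0.000210%. On the left a peak of 149 reads without a named gene lay 113 kb away. Over the list, the distance to the nearest other peak had a median of 81.5 kb and quartiles of 27.4 and 177 kb, which hold both genes between them.

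**Figure D4:**
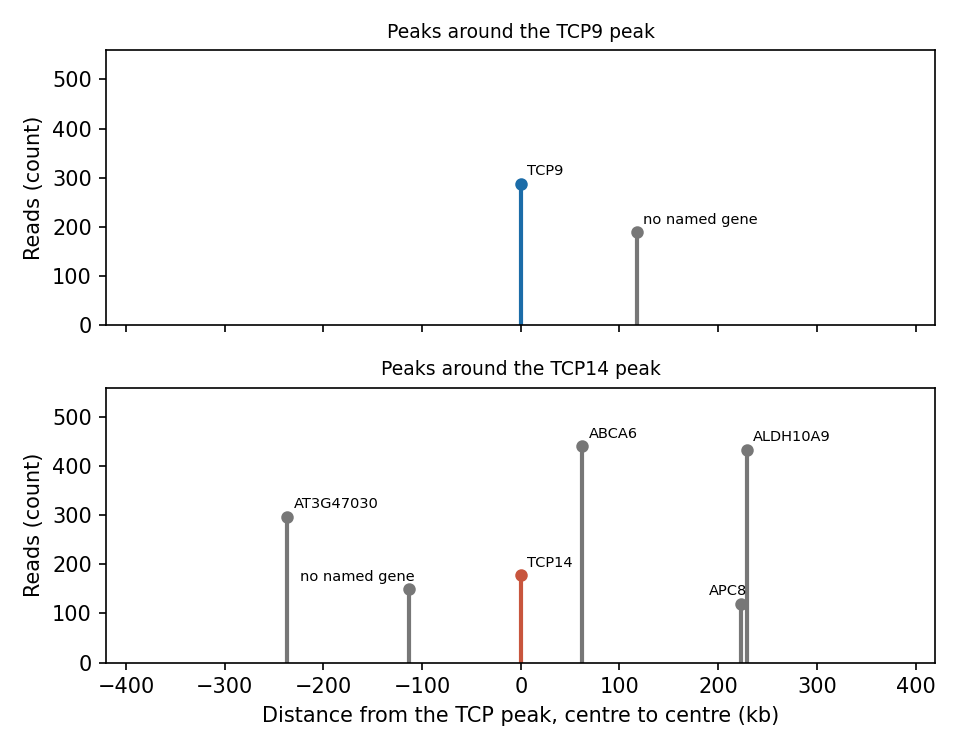
Reads (count) of each peak within 400 kb of the TCP9 peak (upper panel) and of the TCP14 peak (lower panel), against its distance in kb from the centre of the TCP peak. The TCP9 peak has 1 other peak in the window, at 118 kb with 189 reads, and the TCP14 peak stands between peaks of 149 and 441 reads at -113 and 62.4 kb.

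Within the family, 2 of the 24 TCP genes were named under a peak, and these are the genes the rule selected. The share of all 27444 nuclear protein-coding genes named under a peak was 1.05%. That count is fixed by the choice of the genes and nothing is read from it. Both were class I genes, 2 of 13. The other 11 class I genes include TCP15, the closest relative of TCP14, TCP8, the partner of TCP9, TCP20, a regulator of cell division and growth genes, and TCP21, which represses the clock gene CCA1. None of them was named in the overlap column. None of the 11 class II genes was named either, among them the miR319-targeted leaf growth genes TCP2, TCP3, TCP4, TCP10 and TCP24 and the branching repressors TCP12 and TCP18. At the background share of 1.05%, 0 is a likely count for 11 genes. The exact 95% binomial limit for 0 of 11 is 28.5%, so no contrast between the classes is read from these counts. With peaks of an FDR under 1% alone, TCP9 stayed and TCP14 did not, while 0.496% of protein-coding genes were named. With peaks of a p-value of at most 0.05 both stayed (1.03% of protein-coding genes). Counting genes within 1000 bp or 3000 bp in the neighbour columns added no TCP gene (1.17% and 1.33% of protein-coding genes). Those columns are incomplete, with a listed neighbour over 20000 bp away in 316 of 439 peaks. A TCP gene near a peak could therefore be missed, and nothing is read from the unchanged count.

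Peaks on genes next to a TCP gene were looked up in RefSeq gene order, a step added after the data were seen. An adjacent protein-coding gene was named under a peak for 2 of the other 22 TCP genes, against 2.08% of all protein-coding genes. The exact 95% binomial interval for 2 of 22 was 1.12% to 29.2%, which includes that share, so no excess is read from it. Beside TCP8, the peak on AT1G58090 held 181 reads, 129 forward and 52 reverse, at a deposited FDR of 1.19% (p-value 6.38e-05). Beside TCP5 (AT5G60970), a class II gene of leaf shape, the peak on AT5G60980 held 178 reads, 57 forward and 121 reverse, with an FDR of 2.40%. Counting these adjacent genes, 4 of 24 TCP genes were named or adjacent (3.1% of protein-coding genes). Of these 4, 2 are the genes the rule selected, so nothing is read from that count. The distance from the peaks on AT1G58090 and AT5G60980 to the TCP genes is not in the list and was not computed. Neither gene flanking TCP9, AT2G45670 and the peroxisome biogenesis gene SSE1 (AT2G45690), was named under a peak.

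The listed genes that work with TCP factors were not named under a peak. These genes were picked from general knowledge and are not a complete set. Of 24 such genes, 20 protein-coding and 4 for microRNAs, 0 were in the overlap column. For the 20 protein-coding genes this allows a share of up to 16.8% (exact 95% binomial limit), against the 1.05% of all protein-coding genes. No background was computed for microRNA genes. They were the TCP partners SPY, SRFR1, PNM1, AS2 and TOC1, and the DELLA repressors GAI, RGA, RGL1, RGL2 and RGL3. Genes regulated by or acting with TCP factors were CCA1, ICS1, LOX2, DWF4, IAA3, KNAT1, CYCB1;1, CYCA2;3, RBR1 and PCNA2. The microRNA genes were MIR319A, MIR319B, MIR319C and MIR164A. None was listed within 3000 bp in the neighbour columns, which are incomplete, and none lay next to a gene named under a peak. At the background share 0 is a likely count for 20 protein-coding genes, and promoter regions were not examined, so the count does not show that ATAF1-HA was absent from these genes.

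The peaks most like each TCP peak were ranked by distance over the percentile ranks of reads, length, forward share and FDR, 4 columns of 1 list, among peaks on protein-coding genes. Nearest to TCP9 was ZAT (AT2G46800), a zinc transporter gene of the vacuole membrane also known as MTP1, at a distance of 26.98. Its peak held 230 reads, 66 forward and 164 reverse, over 64 bp. Next came AT2G07667 with 414 reads at a distance of 29 and the membrane-bound NAC factor gene NTL8 (AT2G27300) with 292 reads over 308 bp at a distance of 30.2. NTL8 had a p-value of 1, unlike TCP9. Nearest to TCP14 were AT2G07981 (152 reads, 72.4% forward, 5 bp, distance 15.0), AT5G23350 (191 reads, 63.4% forward, 21 bp, distance 16.3) and AT5G46820 (212 reads, 68.4% forward, 3 bp, distance 16.4). The distance between the TCP9 and TCP14 peaks was 142, against medians of 87.2 from TCP9 and 89.3 from TCP14 to all other peaks on protein-coding genes. Of those 290 peaks, 284 were closer to TCP9 than TCP14 was, and 289 were closer to TCP14 than TCP9 was.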

How the data were processed

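ChIP-seq of 35S:ATAF1-HA and wild-type Col-0 rosettes used 10 ng of precipitated DNA per library, per the labels' protocols. The series has 1 deposited peak list on TAIR 9, per the submitters' processing notes. Which aligner and peak caller were used, how the Col-0 library entered and how many reads each library had is not given in the sources used. In the list, per the file headers, deposited reads per peak are a raw count, with the parts on each strand beside it. The deposited FDR is a percent, the strand imbalance as deposited is a fraction, and the deposited p-value belongs to a test that the list does not name. Length equals end minus start.

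Annotation text over several lines was joined (177 continuation lines). Gene names were matched by locus, symbol or synonym on the peak's own chromosome to a RefSeq table of TAIR10.1. Names, biotypes and gene order came from that table. Its gene start positions served for that order, and peaks were not placed against them. TCP genes were matched by locus, since that table lacks some TCP names and calls TCP21 (AT5G08330) TCP11. Sequences, promoters and motifs were not analysed here.

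Members and lists were chosen with earlier results of these data known. Named were both genes, every gene in their overlap or neighbour columns, every list member overlapped or within 3000 bp of a peak, and the 3 nearest peaks by likeness. Strand tests were adjusted by Benjamini-Hochberg over 439 peaks, which replaces the planned adjustment over 4 tests, and tests between the peaks over those 4. Name matching and the tests were tested on simulated data. Alternatives concerned FDR, p-value, neighbour distance, interval, strand and length. Calculations were made in Python 3.11.15 with NumPy 2.4.6, SciPy 1.17.1, statsmodels 0.14.6 and Matplotlib 3.10.9.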

Additional observations from a re-analysis of the deposited data

How the results depend on the processing

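The order of TCP9 and TCP14 by reads depended on the quantity. The ratio of TCP9 to TCP14 was 1.62 by total reads, 4.23 by reverse reads, 0.654 by forward reads (exact binomial test, two-sided p = 0.00261) and 0.0519 by reads per bp. The forward and reverse ratios follow from the opposite strand balance and the last from the lengths. By reads, the TCP9 peak exceeded 75.9% of the other peaks, 79.7% of those on protein-coding genes and 2.07% by reads per bp. The TCP14 peak exceeded 35.7% of the other peaks by reads and 86.2% by reads per bp. By strand imbalance TCP9 exceeded 92.7% of the other peaks and, by an alternative added after the data were seen, 100% of those of like read total. The count of TCP genes under a peak was 2 and fell to 1 (TCP9) with an FDR under 1%. With adjacent genes counted, also added later, it came to 4, of which 2 are the genes the rule selected. It was 2 in the settings by p-value and by neighbour distance, though the neighbour columns are incomplete and could miss a nearby gene. The count for the listed genes that work with TCP factors was 0 in each setting run. Exact in place of Wilson intervals left both forward shares past the threshold. No paired analysis was possible because there was a single library per genotype. Depth per library is unknown, so what either library could detect at these genes is unknown too.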

Other observations

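The deposited FDR did not follow total reads at either gene. TCP9 shared its FDR of 0.283% with 6 other peaks, among them AGL14 (AT4G11880, 371 reads, p-value 0.893), AT4G22020 (307 reads) and AT4G23910 (196 reads). TCP14 shared its FDR of 1.60% with peaks of 130 to 324 reads. In 6 of these 7 peaks, TCP14 among them, the number 130 appeared as the total, the forward or the reverse read count, against 3 of the other 432 peaks of the list. It was the total in 3 peaks, the forward count in 2 and the reverse count in 1. No such count was made for the FDR of TCP9. There, the 196 reads of AT4G23910 did not recur as a total or strand count of TCP9, AGL14 or AT4G22020. These values were picked after they were seen, and how the FDR was computed is not stated in the list.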
